A study of Rattus norvegicus with 4 samples.

Results

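The genes described here are 7 members of the plasminogen activator system and of the serpin family in rat tendon stem/progenitor cells (TSPCs): Plat, Plau, Plaur, Serpine2, Serpinb2, Serpinf1 and Serpinh1. They were taken by gene symbol from the 32623 rows of the deposited expression table, and each symbol had 1 row. The table came from 4 RNA sequencing libraries of TSPCs, progenitor cells isolated from tendon. There were 2 control libraries, given the solvent DMSO, and 2 libraries of cells given U0126, an inhibitor of the kinase MEK and so of ERK activation. The labels call the libraries of a group biological replicates, without saying whether these were separate animals or separate cultures, and give no strain, age, sex, dose or time. The p-values below measure only the spread between these libraries.

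Plasminogen is a circulating zymogen that is cut to the protease plasmin by either of 2 serine proteases, tissue-type plasminogen activator (tPA, encoded by Plat) and urokinase (uPA, encoded by Plau). Urokinase acts mostly at the cell surface, held by its receptor uPAR (Plaur), and plasmin clears fibrin, degrades matrix and activates matrix metalloproteinases and growth factors. Serpins are a protein family whose inhibitory members trap such proteases in a covalent complex. Among the listed serpins, Serpine2 (protease nexin-1) inhibits thrombin and both activators, and Serpinb2 (plasminogen activator inhibitor 2, PAI-2) inhibits urokinase. Serpinf1 (pigment epithelium-derived factor, PEDF) and Serpinh1 (HSP47) are serpins by fold only: PEDF is a secreted signalling protein, and HSP47 is the procollagen chaperone of the endoplasmic reticulum. The label under which these genes were grouped thus covers both inhibitors of the activators and serpins that inhibit no protease.

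Total counts lay between 36888913 and 42785190 per library. Of 10 tendon markers, 9 were expressed well enough to be tested, while Tnmd (tenomodulin) had at most 0.115 CPM. The tendon markers moved with U0126: Comp (8.42-fold), Dcn (2.78-fold), Fmod (2.41-fold) and the tendon transcription factor Scx (1.70-fold) rose, Tnc fell 2.91-fold and 4 did not pass. Without control replicate 2 only 2 of them rose. The part of this in the values of the 7 genes was not tested. Over all genes tested, 8.41% were called higher and 11.5% lower. Of 20 ERK output genes, 11 fell. Another, Myc, rose with an adjusted p just inside the threshold and was not called in 8 of 11 alternatives. Dusp5, a nuclear ERK phosphatase, went from 12.1 ± 0.0816 to 2.40 ± 0.0792 CPM (counts relative to the TMM-scaled library total; mean ± SD, n = 2 libraries per group here and below). Their summed level was 1304 and 1285 CPM in the controls and 702 and 924 CPM in U0126 replicates 1 and 2. The fallen ERK output genes numbered 5 and 7 without control replicate 1 and 2. Mitochondrially encoded transcripts took 2.98% to 3.48% of the counts in the controls and 4.82% to 5.64% with U0126.

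All 7 genes were tested. With U0126, 1 rose (Serpine2), 1 was called lower (Serpinb2) and 5 did not pass edgeR's quasi-likelihood test at a Benjamini-Hochberg adjusted p under 0.05. Serpinb2 entered the test only through its control counts, so its call is a description and carries no weight as a test. Over all 14023 genes tested, 8.41% were called higher, 11.5% lower and 19.9% in either direction. The share of the 7 genes called, 28.6%, stood on 2 genes and is not read as a property of the group. The libraries of the 2 groups did not overlap for 5 of the 7 genes, against 62.8% of all genes tested, so that separation alone marked none of them out.

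**Figure D1:**
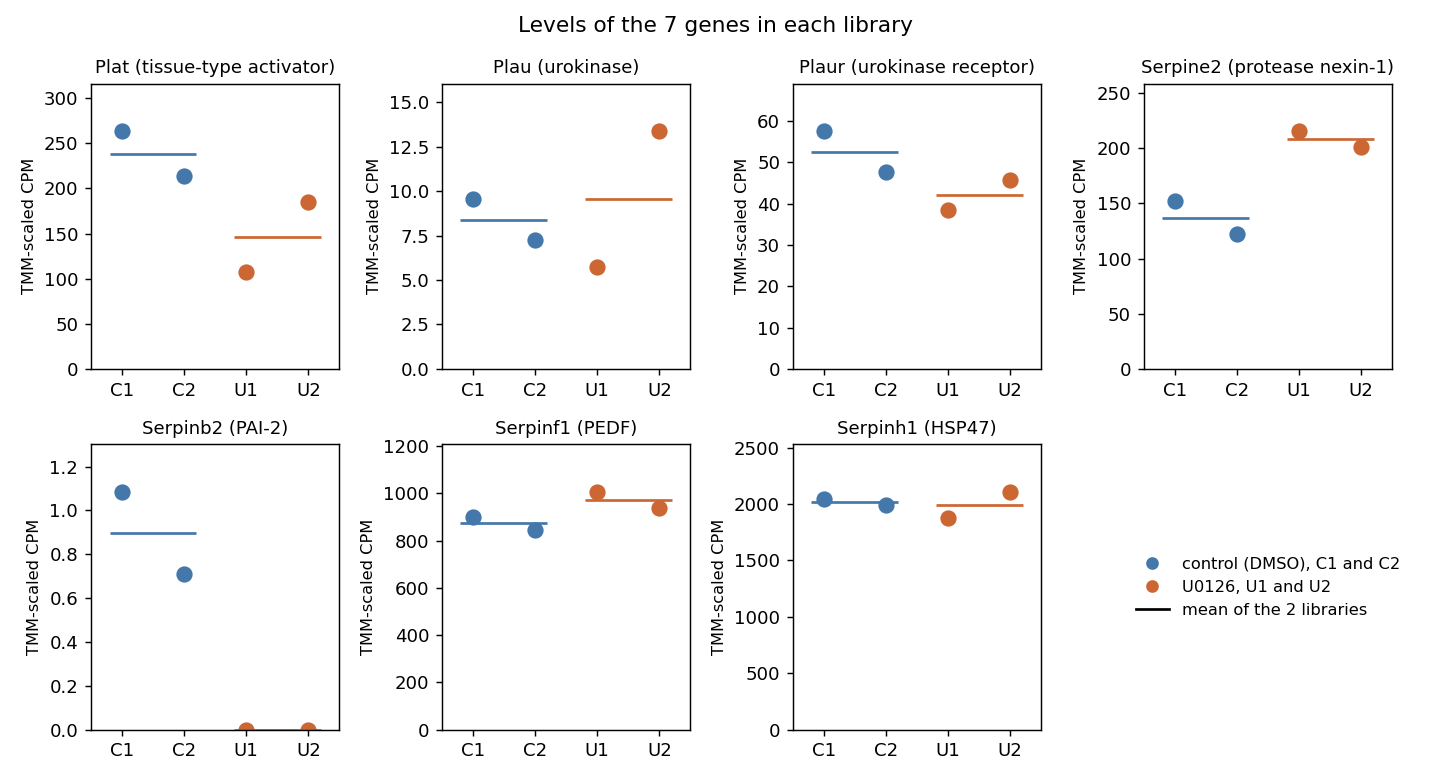
Level of each gene in each library, in TMM-scaled CPM (y axis), for controls C1 and C2 and U0126 libraries U1 and U2; lines are means of the 2 libraries. Serpine2 is higher in both U0126 libraries, Serpinb2 has no count in either, and the U0126 libraries of Plau lie on both sides of the controls.

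Per unit of transcript length the 7 genes spanned a wide range. In the controls the order by the deposited TPM, which accounts for transcript length, was Serpinh1 (1777 ± 19.2), Serpinf1 (1016 ± 17.8), Plat (169 ± 20.6), Serpine2 (120.1 ± 15.1), Plaur (95.9 ± 10.03), Plau (8.02 ± 1.34) and Serpinb2 (0.812 ± 0.227). No neighbours in this order had overlapping control libraries. With U0126 the order of Plat and Serpine2 was exchanged, with TPM levels of 176 ± 7.23 for Serpine2 and 99.4 ± 38.0 for Plat, and the libraries of Plat overlapped those of Plaur (74.1 ± 9.65 TPM). Serpinh1 ranked 73 and Serpinf1 139 among all rows by mean TPM over the 4 libraries, whereas Plau ranked 8477. The activator transcript of these cultures was therefore mostly Plat, and urokinase was the rarer one beside an abundant receptor.

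Plat (chromosome 16, 74098260 to 74122889, minus strand, rn6) encodes tPA, the activator best known for fibrin-bound plasminogen. Its level was 263 and 213 CPM in the controls and 107 and 185 CPM in U0126 replicates 1 and 2. Both U0126 libraries lay below both controls, but they lay far from each other. The log2 fold change was -0.71 ± 0.24 (SE; 95% interval -1.27 to -0.14), which did not pass (edgeR unadjusted p = 0.0207, adjusted p = 0.0825). The call turned on U0126 replicate 2. Without it the log2 fold change was -1.16 and passed, and without U0126 replicate 1 it was -0.37 and did not. Leaving out either U0126 library also raised the number of calls over all genes, so a pass in such a fit holds with that limit. Over all alternatives the adjusted p lay between 1.69e-04 and 0.358. Replicate 2 held 1.72 times the Plat level of replicate 1. Among 10097 genes with a mean of at least 5 CPM, 2.60% had U0126 libraries at least that far apart. The summed level of the ERK output genes above was also higher in replicate 2, but single genes of that list went both ways. From U0126 replicate 1 to 2, Ier3 went from 137 to 257 CPM, Egr1 from 58.8 to 107 CPM and Dusp6 from 22.1 to 17.6 CPM. The part of this in the Plat values was not tested.

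Plau (chromosome 15, 3644769 to 3650819, minus strand, rn6) encodes urokinase. The control libraries held 378 and 315 counts (9.53 and 7.24 CPM), and U0126 replicates 1 and 2 held 217 and 484 (5.72 and 13.4 CPM). The U0126 libraries held the lowest and the highest value of the 4, so the groups overlapped. The log2 fold change of 0.19 ± 0.37 (95% interval -0.68 to 1.05) did not pass (edgeR adjusted p = 0.762), and the interval is too wide to show an absence of change. It turned sign with the library kept: 0.68 without U0126 replicate 1, which passed, and -0.56 without U0126 replicate 2, which did not. Both of these fits raised the number of calls over all genes too. A ratio of 2.34 between U0126 libraries, as Plau had, was reached by 0.565% of the genes with a mean of at least 5 CPM. The median ratio over those genes was 1.12 between the U0126 libraries and 1.07 between the controls.

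Plaur (chromosome 1, 81328183 to 81344708, plus strand, rn6) encodes the urokinase receptor, a membrane protein held by a lipid anchor. Its level was 57.5 and 47.6 CPM in the controls and 38.5 and 45.8 CPM with U0126. Both U0126 libraries were below both controls, the closest pair by a small margin. The log2 fold change of -0.32 ± 0.13 (95% interval -0.63 to -0.0026) did not pass after adjustment (edgeR unadjusted p = 0.0486, adjusted p = 0.145). Without U0126 replicate 2 it was -0.46 and passed, in a fit that raised the number of calls over all genes too. For each of Plat, Plau and Plaur, U0126 replicate 2 held more than replicate 1.

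**Figure D2:**
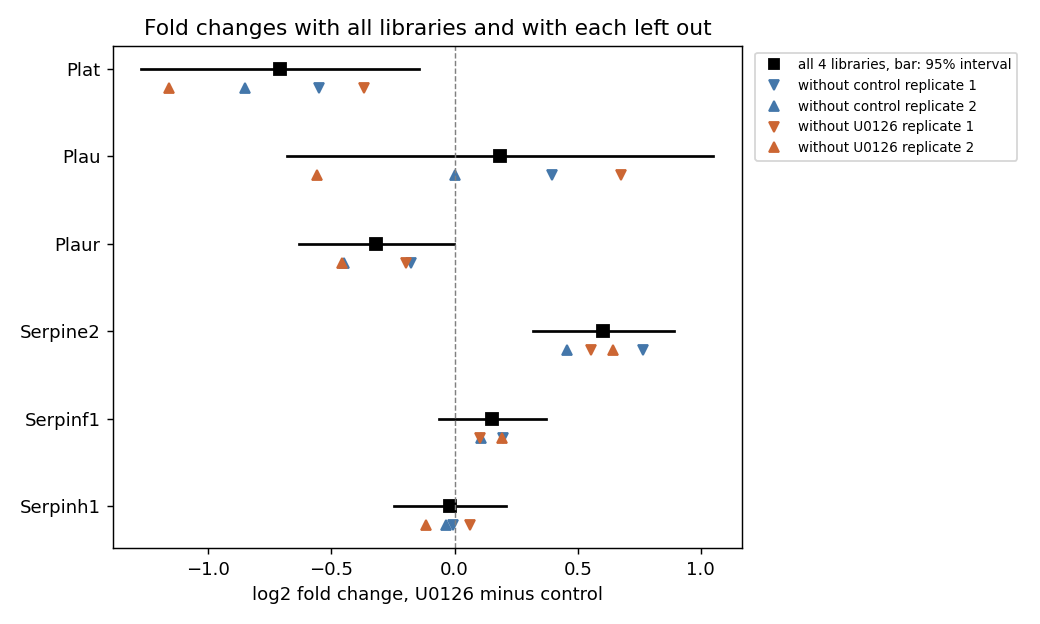
Log2 fold change of U0126 against control (x axis) for 6 of the 7 genes with all 4 libraries (squares, bars are 95% intervals of the edgeR fit) and with each library left out (triangles). Plau crosses 0 according to which U0126 library is kept, and Serpine2 stays above 0 throughout; Serpinb2 is not drawn, because its fitted value against 0 counts is no measure of size.

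Serpine2 (chromosome 9, 85560863 to 85626094, minus strand, rn6) encodes protease nexin-1, a secreted and cell-bound inhibitor of thrombin, urokinase and tPA. Its level was 152 and 122 CPM in the controls and 215 and 201 CPM with U0126. Every U0126 library was above every control, and the gap between the groups exceeded the distance within either. Serpine2 rose 1.52-fold (log2 fold change 0.60 ± 0.12, 95% interval 0.32 to 0.89, edgeR adjusted p = 0.0141). The log2 fold change was 0.46 without control replicate 2, the lower of the controls, and did not pass, and it was 0.77 without control replicate 1. Leaving out either control lowered the number of calls over all genes too, but Serpine2 lost its call only without control replicate 2. The cause of this loss was not tested. In the alternatives that kept all libraries the call held, with an adjusted p down to 7.64e-05 (DESeq2).

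Serpinb2 (chromosome 13, 27449934 to 27463010, plus strand, rn6) encodes PAI-2, a mostly intracellular serpin of the clade B type. It was the rarest of the 7 genes, with 43 and 31 counts in the controls (1.08 and 0.712 CPM) and 0 in each U0126 library. It passed the filter on low counts only through the controls, and keeping genes in this way favours falls. Zero counts in the U0126 libraries together allow up to 0.0405 CPM (3 counts over the group, counting error only), which puts Serpinb2 at least 21.98-fold lower with U0126. This is given as a description of the counts, with no test. The call itself was lost without control replicate 1, and under a filter on mean CPM of at least 1 the gene was not tested.

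PAI-2 is also known from macrophages and tPA from endothelium, so markers of both were read beside them. Of 13 leukocyte markers in the table, 6 had no count in any library, among them Ptprc (CD45, the pan-leukocyte antigen), Aif1 and Tyrobp. The summed level of the 13 was 15.6 to 16.0 CPM in the controls and 11.4 to 12.6 CPM with U0126, most of it Cd14 (12.1 ± 0.320 and 10.8 ± 0.101 CPM). Of the rarer markers, 4 were also lower with U0126, while Fcer1g overlapped between the groups (0.202 and 0.161 against 0.132 and 0.193 CPM). Adgre1, a macrophage surface antigen, had 0.580 and 0.368 CPM in the controls and 0.0527 and 0 CPM with U0126. Lyz2 (lysozyme) had 1.69 and 2.34 against 0.949 and 0 CPM, Cd68 had 0.706 and 0.391 against 0.264 and 0.249 CPM, and Csf1r had 0.479 and 0.414 against 0.343 and 0.249 CPM. Of the 5 tested leukocyte markers, these 4 entered the test only through the controls, which favours falls, so their values are a description. Cd14, which reached the filter's level in both groups, had a log2 fold change of -0.16 and did not pass. Adgre1 was the only one of the 5 called, and not in 7 of 11 alternatives. The part of these markers in the Serpinb2 values was not tested. Of 9 endothelial markers, 4 had no count in any library (Cdh5, Tie1, Emcn and Cldn5), and the sum was 24.7 to 25.7 CPM in the controls and 23.6 to 23.7 CPM with U0126, nearly all of it Egfl7. Other marker lists also moved. Summed CPM was 203 and 225 in the controls and 86.0 and 130 with U0126 for 10 skeletal muscle markers. Most of it was Acta1 (189 and 214 against 80.7 and 122 CPM). Of 5 tested, 4 were called lower, Myod1 only through its control counts. Myh3, which did not pass, and Myog, which was not tested, had both U0126 libraries above the controls. For 9 pericyte and smooth muscle markers the sum was 8621 and 9031.5 against 5379 and 6265, most of it Acta2. Of 8 tested, 3 fell and 4 rose. For 6 Schwann cell markers the sum was 13.4 and 8.57 against 44.4 and 26.9, most of it S100b, with Sox10 at 0 in all libraries. For 7 epithelial markers it was 2.62 and 2.83 against 3.74 and 3.84, with Epcam and Cdh1 at 0. Their part in the values of the 7 genes was not tested. In bulk libraries, fewer cells of a type and less RNA per cell cannot be told apart.

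Serpinf1 (chromosome 10, 62241756 to 62254287, minus strand, rn6) encodes PEDF, a secreted glycoprotein known as an inhibitor of angiogenesis and as a factor in bone mineralization. Its level was 900.3 and 846 CPM in the controls and 1006 and 938 CPM with U0126. The groups did not overlap, but the shift was small. The log2 fold change of 0.15 ± 0.09 (95% interval -0.06 to 0.37) did not pass (edgeR adjusted p = 0.289). Changes above 0.37 on the log2 scale lie outside that interval, as do falls beyond -0.06.

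Serpinh1 (chromosome 1, 164301010 to 164308317, minus strand, rn6) encodes HSP47, which binds triple-helical procollagen in the endoplasmic reticulum. Its level was 2039.7 and 1995 CPM in the controls and 1876 and 2106 CPM with U0126. The U0126 libraries lay on both sides of the controls. The log2 fold change was -0.02 ± 0.10 (95% interval -0.25 to 0.21, edgeR adjusted p = 0.917), and it was 0.06 without U0126 replicate 1. It had the most counts of the 7 genes, with a sum of 167716 in the controls and 147451 with U0126.

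The stretch of 250 bases before the annotated transcript start is shown for the 2 called genes, which moved in opposite directions, and for Plaur and Serpinh1, whose stretches hold an AP-1 and a heat shock motif. RefSeq gave a stretch for 6 of the 7 genes in the GRCr8 build, which is not the build of the counts. Both strands were searched for AP-1 (TGANTCA), ETS (GGAAGT or CCGGAA, which can overlap), Sp1 (GGGCGG), the heat shock element (GAANNTTC) and a TATA box (TATAAA), and matches are in capitals.
Serpine2, chr9:88637203-88637452, minus strand: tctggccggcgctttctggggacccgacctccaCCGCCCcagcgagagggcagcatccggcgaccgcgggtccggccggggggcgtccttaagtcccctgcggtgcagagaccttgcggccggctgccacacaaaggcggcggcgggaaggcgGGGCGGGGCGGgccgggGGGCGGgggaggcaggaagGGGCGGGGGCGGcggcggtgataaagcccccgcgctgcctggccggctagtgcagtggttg
Serpinb2, chr13:24055771-24056020, plus strand: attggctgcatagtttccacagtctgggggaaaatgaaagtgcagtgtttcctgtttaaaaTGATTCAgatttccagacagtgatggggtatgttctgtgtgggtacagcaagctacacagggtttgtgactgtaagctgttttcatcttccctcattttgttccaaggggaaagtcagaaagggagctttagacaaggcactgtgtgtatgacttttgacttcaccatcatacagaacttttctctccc
Plaur, chr1:89181113-89181362, plus strand: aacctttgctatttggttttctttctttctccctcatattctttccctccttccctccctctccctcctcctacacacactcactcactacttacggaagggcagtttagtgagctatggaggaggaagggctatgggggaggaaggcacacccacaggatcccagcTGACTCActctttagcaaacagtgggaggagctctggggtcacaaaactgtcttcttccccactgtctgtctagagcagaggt
Serpinh1, chr1:163062977-163063226, minus strand: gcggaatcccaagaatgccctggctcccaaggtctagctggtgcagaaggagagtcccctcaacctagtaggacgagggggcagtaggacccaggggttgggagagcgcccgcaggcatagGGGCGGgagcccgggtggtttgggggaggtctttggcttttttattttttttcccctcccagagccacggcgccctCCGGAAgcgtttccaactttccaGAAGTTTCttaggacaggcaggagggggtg

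The sequences of the 2 called genes differed in composition. The Serpine2 stretch was 76.8% G or C and held 6 Sp1 matches, while that of Serpinb2 was 43.2% G or C and held none of them, against a median of 51.2% over 33469 such stretches. Serpinb2 and Plaur each held 1 AP-1 match, beginning 189 and 83 bases before the start, a motif found in 6.34% of all stretches. The Serpinh1 stretch held a heat shock match at 30 to 23 bases before the start (7.23% of all stretches), an ETS match of the form CCGGAA (12.6%) and an Sp1 match (30.5%). Plau held 3 Sp1 matches and Serpinf1 none of the motifs. GGAAGT (19.2% of all stretches) and TATAAA (12.9%) were in none of the 6. A match is a run of letters and not a measured binding site.

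Other members of the serpin family were read beside the 7 genes. The 39 serpin rows reported here include 22 with no count in any library and 11 that were tested. Of these 11, 5 were called lower, 1 higher (Serpine2) and 5 did not pass. Over all genes tested, 11.5% were called lower and 8.41% higher. However, 3 of the 5 called lower (Serpinb2, Serpinb1a and Serpinb6b) entered the test only through their control counts. Serpinc1, which did not pass, entered only through U0126. Among the 7 that reached the filter's level in both groups, 2 fell (Serpinb6 and Serpinb9), 1 rose and 4 did not pass, with a median log2 fold change of -0.02, against 0.02 for all genes tested. The rise was lost without control replicate 2. Without U0126 replicate 2, where more genes were called in all, Serping1 rose as well (log2 fold change 0.41).

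The other clade B serpins tested lie on chromosome 17, between 32190801 and 32911495 (rn6), where the table lists 6 serpins; this group was put together after their values were seen. Serpinb9 and Serpinb6 fell. Serpinb9, an inhibitor of granzyme B, went from 91.0 ± 2.09 to 26.9 ± 1.12 CPM (log2 fold change -1.76 ± 0.09, edgeR adjusted p = 1.28e-04), a call kept in all alternatives. Serpinb6 went from 187 ± 4.10 to 141 ± 3.34 CPM (edgeR adjusted p = 0.0176), a call lost without control replicate 1 (0.193) or 2 (0.156). Serpinb1a went from 1.49 ± 0.217 to 0.253 ± 0.201 CPM and Serpinb6b from 1.76 ± 0.218 to 0.180 ± 0.254 CPM. These 2 values are a description, since both genes passed the filter only through the controls. Both calls were lost without either control, neither gene was tested under the filter on mean CPM, and the call of Serpinb6b was also lost under DESeq2 (adjusted p = 0.368) and with the replicate block (edgeR adjusted p = 0.0520). These genes belong to the same clade, and their sequences were not compared. How reads matching more than 1 of them were counted is not given in the sources used here, so the values of single genes hold with that limit. Of the tested serpins, Serpini1, Serpinc1 and Serping1 did not pass, with levels of 1.25 ± 0.377 and 0.891 ± 0.0675, 0.419 ± 0.414 and 0.483 ± 0.137, and 113 ± 11.9 and 129 ± 32.7 CPM.

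**Figure D3:**
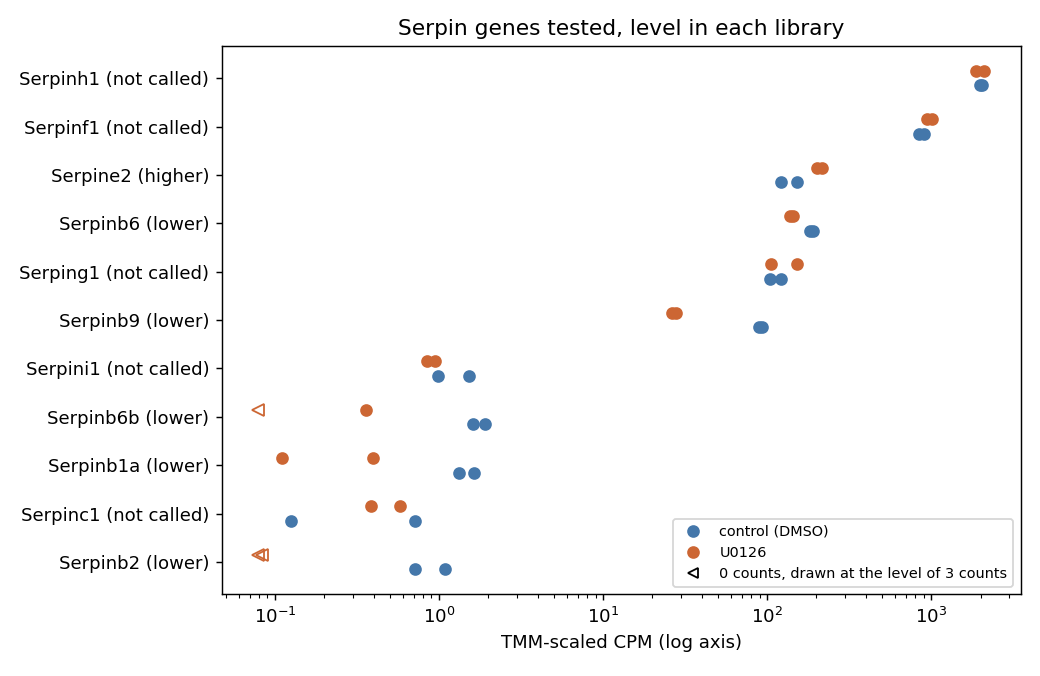
Level of 11 tested serpin genes in each library, in TMM-scaled CPM (log x axis), controls below and U0126 above the line of each gene; open triangles are libraries with 0 counts, drawn at the level of 3 counts in that library. Serpine2 is the serpin with both U0126 libraries above the controls and a call. Of the serpins shown, 5 are called lower, against 11.5% of all genes tested.

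Plasmin's other partners, among them its cell-surface receptors and the receptors that clear its activators, went both ways. Of 17 tested partners reported here (26 listed, 25 in the table), 3 rose, 5 fell and 9 did not pass, with a median log2 fold change of -0.0444. The shares over all genes tested were 8.41% called higher and 11.5% called lower. S100a10, a plasminogen receptor, fell from 307 ± 6.43 to 145 ± 11.5 CPM (2.12-fold, edgeR adjusted p = 5.65e-04) and its partner Anxa2, annexin A2, from 1311 ± 36.8 to 837 ± 46.6 CPM (1.57-fold, edgeR adjusted p = 0.00367). Eno1, a glycolytic enzyme that also binds plasminogen at the cell surface, fell 1.83-fold. Itgb1, the integrin beta-1 chain, fell 1.60-fold (edgeR adjusted p = 0.00449). Plgrkt, another plasminogen receptor, had a log2 fold change of -0.04 and did not pass. Lrp1, an endocytic receptor which clears complexes of activators with serpins, went from 1500.04 ± 161 to 2034 ± 116 CPM (edgeR adjusted p = 0.0306), and Mrc2 and Vldlr, named after their values were seen, rose 1.45-fold and 1.26-fold. The endocytic receptors Lrp8 and Igf2r did not pass, with log2 fold changes of 0.0089 and 0.18. Of Lrp1, Mrc2 and Vldlr, none passed edgeR's test without control replicate 1 or 2. Plasminogen itself (Plg) had 4 counts in U0126 replicate 1 and 0 in the other libraries, and Vtn (vitronectin) had 0 in all 4.

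Genes whose products plasmin or the activators process went both ways. The list also held the growth factor receptors Met and Mst1r, which did not pass. The 23 tested comprised 7 that rose, 4 that fell and 12 that were not called, with a median log2 fold change of -0.12. Of all genes tested, 8.41% were called higher and 11.5% lower. Hgf, a growth factor whose precursor urokinase can cleave, fell 7.85-fold from 5.73 ± 1.48 to 0.726 ± 0.129 CPM (edgeR adjusted p = 9.65e-04). Pdgfd and Pdgfc, latent platelet-derived growth factors that urokinase and tPA respectively can activate, rose 3.70-fold and 2.10-fold (10.7 ± 0.332 to 39.7 ± 7.39 CPM and 21.7 ± 3.13 to 45.7 ± 3.83 CPM). Mmp2, gelatinase A, rose 2.95-fold. The remaining falls were those of Mmp3, Mmp9 and Mmp10, which were picked for naming from their values. The 3 fibrinogen chain genes Fga, Fgb and Fgg had no count. Without control replicate 1 or 2 the risers numbered 3.

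Among 14 tested genes of coagulation and related secreted proteases, 4 rose, 3 fell and 7 did not pass, with a median log2 fold change of 0.08. Calls over all genes tested were 8.41% higher and 11.5% lower. F3 (tissue factor, the cell-surface starter of coagulation) fell 2.36-fold from 561 ± 66.2 to 238 ± 25.2 CPM (edgeR adjusted p = 8.49e-04). Procr, the protein C receptor, fell 1.80-fold and Htra1, a secreted serine protease, 1.73-fold. Gas6, a ligand of the TAM receptors, rose 3.23-fold from 761 ± 18.5 to 2462 ± 448 CPM. The remaining rises were those of Tfpi (tissue factor pathway inhibitor), F2r (thrombin receptor PAR1) and F2rl2, again picked from their values. Without control replicate 1 or 2 the risers numbered 2 and 1, and the Procr call was lost without control replicate 1 (edgeR adjusted p = 0.0591).

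Serpinh1 did not pass, whereas some of its partners in collagen folding did. The 24 tested comprised 7 that rose, 1 that fell and 16 that were not called, with a median log2 fold change of -0.04. Over all genes tested, 8.41% were called higher and 11.5% lower. P4ha3, a prolyl 4-hydroxylase subunit, rose 1.99-fold from 164 ± 1.91 to 326 ± 1.91 CPM (edgeR adjusted p = 4.97e-04). Sparc, a collagen-binding matrix protein, rose 1.63-fold, and Col3a1, the type III collagen chain that HSP47 also binds, rose 1.48-fold from 5241 ± 239 to 7762 ± 197 CPM. Hsp90b1, a chaperone of the endoplasmic reticulum, was the member that fell (1.42-fold). For Hsf1, the heat shock factor, CPM was 31.7 ± 3.75 in controls and 37.1 ± 1.85 with U0126, a difference that did not pass (edgeR adjusted p = 0.234). Without control replicate 1 and 2 the risers numbered 2 and 3. The Col3a1 call was lost without control replicate 1 (edgeR adjusted p = 0.0535) and that of Hsp90b1 without either control, while 4 partners fell without U0126 replicate 2.

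Of 5 proteins described as receptors of PEDF, 2 rose at the transcript level and 3 did not pass, beside a ligand transcript that did not pass. Among all genes tested, 8.41% were called higher. Plxdc2, a plexin domain protein, rose 1.80-fold from 273 ± 14.1 to 491 ± 87.7 CPM (edgeR adjusted p = 0.00549) and Lrp6, better known as a Wnt co-receptor, 1.53-fold from 175 ± 9.27 to 269 ± 11.9 CPM (edgeR adjusted p = 0.00449). Both calls were lost without control replicate 1 (edgeR adjusted p = 0.0622 and 0.0813), and that of Lrp6 also without control replicate 2. Pnpla2, a lipase, and Rpsa, the laminin receptor, had log2 fold changes of 0.10 ± 0.13 and 0.07 ± 0.09.

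**Figure D4:**
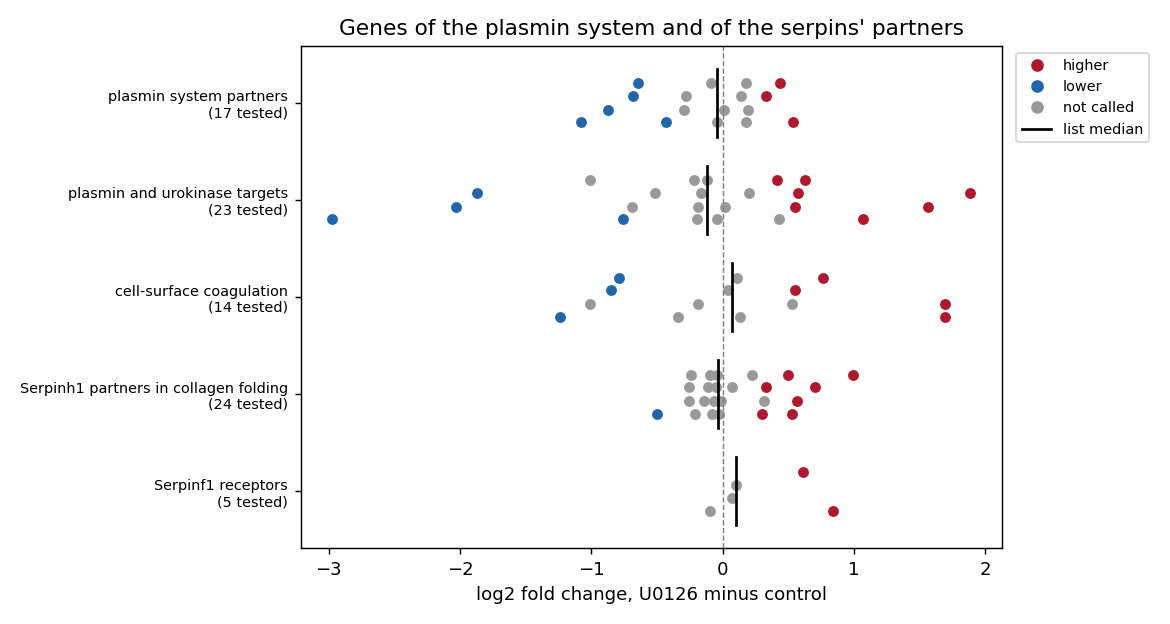
Log2 fold change of U0126 against control (x axis) for every tested gene of 5 lists, coloured by call; black bars are list medians, which lie between -0.12 and 0.10. Rises and falls occur together in the upper 4 lists, and the Serpinf1 receptors show rises and no called fall.

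The genes with the most similar pattern were found by the distance between log2 CPM values centred on each gene's mean, over the 4 libraries, among 8488 named genes whose log2 CPM averaged 3 or more. Nearest to Plau were Map3k8 (distance 0.158), Relb (0.219) and Nfkbia (0.229), which shared its spread between the U0126 libraries. Nearest to Plat were Cxcl16 (0.0785), Pnrc1 (0.123) and Ier3 (0.125). Fkbp7, Kdelc1 and Mrps18b lay nearest to Serpine2 (0.0298 to 0.0490), and Slc25a28, Gmpr and Ptrh2 nearest to Plaur (0.0242 to 0.0643). Serpinf1 (Ints4, Ip6k2 and Dnase1l1) and Serpinh1 (Edc3, Rtcb and Fance), which varied little, had neighbours within 0.0214 and 0.0164. Nearest to Serpinb2 among these candidates were Akap12, Plk1 and Iqgap3 at 0.955 to 0.963. Serpinb2 itself had a mean log2 CPM of -2.16, below the limit set for candidates. Genes of its own level were therefore not searched, and the larger distance cannot show that it lacks close neighbours. With 4 libraries such distances describe these libraries only.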

How the data were processed

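RNA sequencing of rat TSPCs gave 4 libraries, 2 control and 2 U0126, grouped by their titles. The deposited counts are whole, unnormalized numbers per gene, and the deposited TPM values, named so per the file headers, were scaled by the authors for transcript length and library size. Per the submitters' processing notes the build was rn6. Aligner, counter and strand setting: not given in the sources used here. No column of values was left without a sample (0 columns).

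Genes were filtered with edgeR's filterByExpr (minimum count 10, minimum total 15), scaled by TMM and compared by edgeR's quasi-likelihood F test (two-sided) with Benjamini-Hochberg adjustment over 14023 genes (R 4.3.3, edgeR 4.0.16). The SE is the absolute log2 fold change over the square root of F, and 95% intervals use the fit's degrees of freedom. TPM was used only for levels between genes. An exact permutation of 2 against 2 libraries cannot go below p = 0.333. Alternatives were RLE factors, library totals, other filters, DESeq2 1.42.0, limma-voom 3.58.1, each library left out and a replicate block. The script was checked on simulated counts.

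Members and gene lists were chosen with earlier results of these data known. Named were the 7 members, the tested serpins, the tested genes with the smallest adjusted p in each list (at most 4), and 8 partners fixed by name; others are said to be named after their values were seen. Results for some listed genes are not reported here; these genes stayed in the fit over all genes but not in the lists.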

Additional observations from a re-analysis of the deposited data

How the results depend on the processing

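Leaving out a control lowered the number of calls and leaving out a U0126 library raised it. Over the 4 fits that leave out 1 library, genes called higher ranged from 295 (without control replicate 2) to 2138 (without U0126 replicate 2) and genes called lower from 604 to 2506 (likewise), against 1180 and 1612 with all 4. Of the 7 genes, 0 to 2 were called higher and 0 to 3 lower in those fits; the additional calls were Plau as higher without U0126 replicate 1, and Plat and Plaur as lower without U0126 replicate 2. The log2 fold changes ranged from -0.56 to 0.68 for Plau, -0.46 to -0.18 for Plaur, -1.16 to -0.37 for Plat, 0.46 to 0.77 for Serpine2, -8.37 to -7.81 for Serpinb2 (fitted against 0 counts, no bound) and -0.11 to 0.0640 for Serpinh1. Serpinf1 kept its direction and did not pass in any of its 11 alternatives. With a mean CPM of at least 1 required, 0 of the 7 were called lower, because Serpinb2 was no longer tested. Among other named genes, signs turned for Pnpla2 (-0.0309 to 0.22), Serpinc1 (-0.56 to 1.91) and Serping1 (-0.10 to 0.41) when single libraries were left out. Same-numbered libraries did not deviate together (r = -0.03 over 14023 genes). With so few libraries per group this cannot show whether they were paired, and the labels do not say. With the replicate block, 958 genes were higher and 1413 lower, and the log2 fold change of Serpine2 was 0.61. Apart from the stricter filter, the alternatives that kept all 4 libraries changed no call among the 7. The cause of these differences was not tested.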
